A study of Mus musculus with 6 samples.

Results

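Trophectoderm is the outer epithelium of the blastocyst and the source of the placenta. It is specified by a network of transcription factors in which Cdx2, Gata3 and the AP-2 factor Tfap2c act early. Eomes, Elf5, Elf3 and Ets2 act in trophoblast stem cells, and Ascl2, Hand1 and Gata2 act as trophoblast cells mature. In mouse embryonic stem (ES) cells most of these genes are held low by pluripotency factors and chromatin repressors. Several are used again elsewhere: Gata2 in blood progenitors, Tfap2a in neural crest and surface ectoderm, Eomes and Hand1 in mesoderm, and Tfap2c in naive pluripotent and germ cells. The genes described here are 10 such regulators, Gata2, Gata3, Tfap2a, Tfap2c, Eomes, Elf3, Elf5, Hand1, Ascl2 and Ets2, found by symbol or target name among the 17759 named genes and 25697 probes of an Illumina MouseRef-8 v2 bead array. They have 18 probes. The files spell 12 of these as above, and the 6 probes named Tcfap2a or Tcfap2c were matched through the synonyms of the RefSeq gene table.

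Expression was compared between Rest-null ES cells and controls to ask what the loss of REST does to the ES cell transcriptome. REST is a zinc-finger repressor that keeps neuronal genes silent outside neurons. The 3 control samples carry the source label FloRes and the 3 samples of genotype REST KO the source label FloResCre. All are of the line E14Tg2a, a mouse ES cell line, and each was hybridised to 1 array with no treatment, time or age given. The authors name their comparison RestKO against Restflox, so the controls are named as Rest flox. Cre stands in the source label of the REST KO samples alone, so it goes with genotype. The labels do not otherwise say how the allele was made, whether a genotype is 1 clone, or whether the replicates were separate cultures. If they were not, the p-values below reflect technical spread alone. The 6 arrays lie on 1 chip, the controls on its first 3 positions, so position on the chip and genotype cannot be told apart.

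Each array detected 42.5% to 44.9% of its probes, with raw median intensities of 120.5 to 132.8. Rest could not serve to check the genotype, since its probe was detected on none of the 6 arrays (levels of 4.94, 4.97 and 5.11 in control and 4.87, 4.92 and 5.08 in REST KO cells). ES cell markers were expressed in both genotypes. Of 12 defining markers 11 were detected on all control arrays, and these were also detected on all REST KO arrays. Pou5f1 (Oct4) was among them, at 12.71, 12.70 and 12.93 in REST KO cells. No marker of the 11 was higher in REST KO cells, and their median difference was -0.66 (log2), as described below. Control replicate 2 stood apart from the other controls: 3.37% of tested probes lay over 1 log2 unit from the mean of the other control arrays, against 0.913% and 0.904% for control replicates 1 and 3 and 0.0527% to 0.501% for the REST KO arrays. Values without it are given where leaving it out turned a call or the sign of a tested probe.

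Levels below are background-corrected, quantile normalized log2 intensities, on which the lowest level of a detected probe ran from 5.72 to 5.86 over the arrays. A probe counted as detected at a detection p under 0.05, and was tested if detected on at least 3 of the 6 arrays. Probes of 1 gene are numbered from the brightest, and levels of different probes are not compared with each other. Of the 18 probes 9 passed this filter, for Gata2, Gata3, Tfap2a (2 of 3 probes), Tfap2c (all 3), Elf3 (1 of 3) and Ets2. Eomes, Elf5, Hand1 and Ascl2 had no tested probe. The probes were read on 26 to 61 beads per array, which gave a bead error of 0.0429 to 0.114 (standard error, log2).

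Of the 9 tested probes 2 were higher in REST KO cells, those of Gata3 and the brightest probe of Tfap2a, where 1.05% of all 11388 tested probes were called higher (adjusted p under 0.05, limma). None was called lower, where 0.220% of all probes were. By gene, 2 of 6 tested regulators were higher and none lower at an unadjusted p under 0.05, against 10.4% and 10.0% of all genes. The arrays of the genotypes did not overlap for these 2 probes alone, against 25.1% of all tested probes. Tfap2c had the widest spread, which lay within the controls, and its direction turned on which control array was counted.

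The sequence before the start sites of the 2 called genes is shown because AP-2 and GATA factors are among the regulators and their motifs can be searched for there. The windows are the 250 bases before each start site that RefSeq's promoter table lists (GRCm38.p6, minus strand), with matches to the AP-2 motif GCCNNNGGC in capitals.
Gata3, chr2:9878601-9878850: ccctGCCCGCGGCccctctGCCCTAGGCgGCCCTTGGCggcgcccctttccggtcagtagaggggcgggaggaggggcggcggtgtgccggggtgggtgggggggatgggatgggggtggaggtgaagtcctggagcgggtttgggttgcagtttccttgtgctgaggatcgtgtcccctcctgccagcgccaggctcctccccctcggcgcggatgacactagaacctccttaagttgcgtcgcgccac
Tfap2a first start site, chr13:40734921-40735170: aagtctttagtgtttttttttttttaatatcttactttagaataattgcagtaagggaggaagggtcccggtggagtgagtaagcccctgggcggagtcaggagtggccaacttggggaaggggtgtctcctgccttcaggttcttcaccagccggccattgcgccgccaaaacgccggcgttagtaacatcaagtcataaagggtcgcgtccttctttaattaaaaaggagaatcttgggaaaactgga
Tfap2a second start site, chr13:40733796-40734045: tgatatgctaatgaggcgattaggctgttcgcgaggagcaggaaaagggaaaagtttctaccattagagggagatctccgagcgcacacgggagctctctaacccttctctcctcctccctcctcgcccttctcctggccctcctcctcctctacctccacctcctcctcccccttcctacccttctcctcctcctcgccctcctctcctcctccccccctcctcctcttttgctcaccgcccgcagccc

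The Gata3 window holds 3 matches to the AP-2 motif, the farthest starting 246 bases before the start site, and neither Tfap2a window holds one. The motif reads the same on both strands, and 13.7% of 32851 windows of this length hold at least 1 match. The table has 11 windows for 8 of the 10 genes, and 2 of them hold the motif, the one of Gata3 and 1 of Gata2. The GATA motif AGATAA, searched on both strands, stood in none of the 11 windows (9.99% of all windows hold it). Neither did either part of the REST element, TTCAGCACC (0.301%) or GACAGCGCC (0.237%), also on both strands. Such matches describe letters and do not show binding.

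Gata3 encodes a zinc-finger factor that can drive trophoblast fate when expressed in ES cells. Its probe, of a gene on chromosome 2, stood at 6.04, 6.11 and 6.09 in the controls and at 6.89, 7.14 and 6.92 in REST KO cells. Every REST KO array lay above every control, and the controls were within 0.07 of each other. The gene was detected on all 6 arrays, though close to the detection limit in the controls (raw intensities of 161.9, 148.7 and 158.7, against 202.6, 230.3 and 215 in REST KO cells). Gata3 rose by 0.91 ± 0.11 (log2, SE, n = 3 per genotype), or 1.87-fold, with a 95% interval of 0.65 to 1.16 and an adjusted p = 0.0239. In the authors' deposited table the difference was 0.47 (adjusted p = 0.0151), on log2 values without background correction. The call was kept under 9 of 14 alternative settings (adjusted p from 0.00842 to 0.160). Among the others it was lost without control replicate 1 (adjusted p = 0.0809) and without REST KO replicate 1, 2 or 3 (adjusted p = 0.159, 0.160 and 0.0622), while its direction held. In each of these fits 0 of all tested probes were called in either direction, so this loss is not particular to Gata3.

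Its relative Gata2, on chromosome 6, acts with Gata3 in trophoblast and is also a blood progenitor factor. Levels were 6.46, 5.12 and 6.38 in the controls and 6.45, 6.21 and 6.33 in REST KO cells. Control replicate 2 alone was low, and did not detect the gene, while the REST KO arrays lay at or just below the other controls. The difference was 0.35 ± 0.34 (95% interval -0.44 to 1.13, adjusted p = 0.610), and it was -0.09 without control replicate 2 (adjusted p = 0.631, with a range of 0.476 to 0.881 over the alternatives).

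The AP-2 factors share a DNA-binding domain and a motif, and are both used in trophoblast. Tfap2a, on chromosome 13, had levels of 5.98, 6.58 and 6.11 in the controls and 7.59, 7.88 and 7.13 in REST KO cells by its brightest probe. The genotypes did not overlap, and control replicate 2 was the highest control. This probe of Tfap2a rose by 1.31 ± 0.23 (log2, SE), or 2.48-fold, with a 95% interval of 0.77 to 1.85 and an adjusted p = 0.0492. In the authors' deposited table it differed by 0.76 (adjusted p = 0.0213).

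The other Tfap2a probes did not show a like difference. Probe 2, detected on all arrays, stood at 6.03, 6.07 and 6.21 in the controls and at 6.54, 6.20 and 6.21 in REST KO cells. It differed by 0.21 ± 0.13 (95% interval -0.08 to 0.51, adjusted p = 0.392), so its interval ends below that of probe 1. Probe 3 was detected on control replicate 2 and REST KO replicate 1 alone, at 6.23 and 5.92, and was not tested (difference 0.07). The files used here give no probe positions, so which transcripts each probe reads is not known. The rise of Tfap2a therefore rests on 1 of 3 probes, and was called under 6 of 14 alternative settings (adjusted p from 0.0129 to 0.212). Its call was lost with no detection filter (adjusted p = 0.0745), with detection required on all 6 arrays (0.0543), and without control replicate 1 or 3 (0.175 and 0.0871) or REST KO replicate 1, 2 or 3 (0.212, 0.191 and 0.0622). Of these fits, those without control replicate 1 or any REST KO replicate called 0 of all tested probes.

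**Figure D1:**
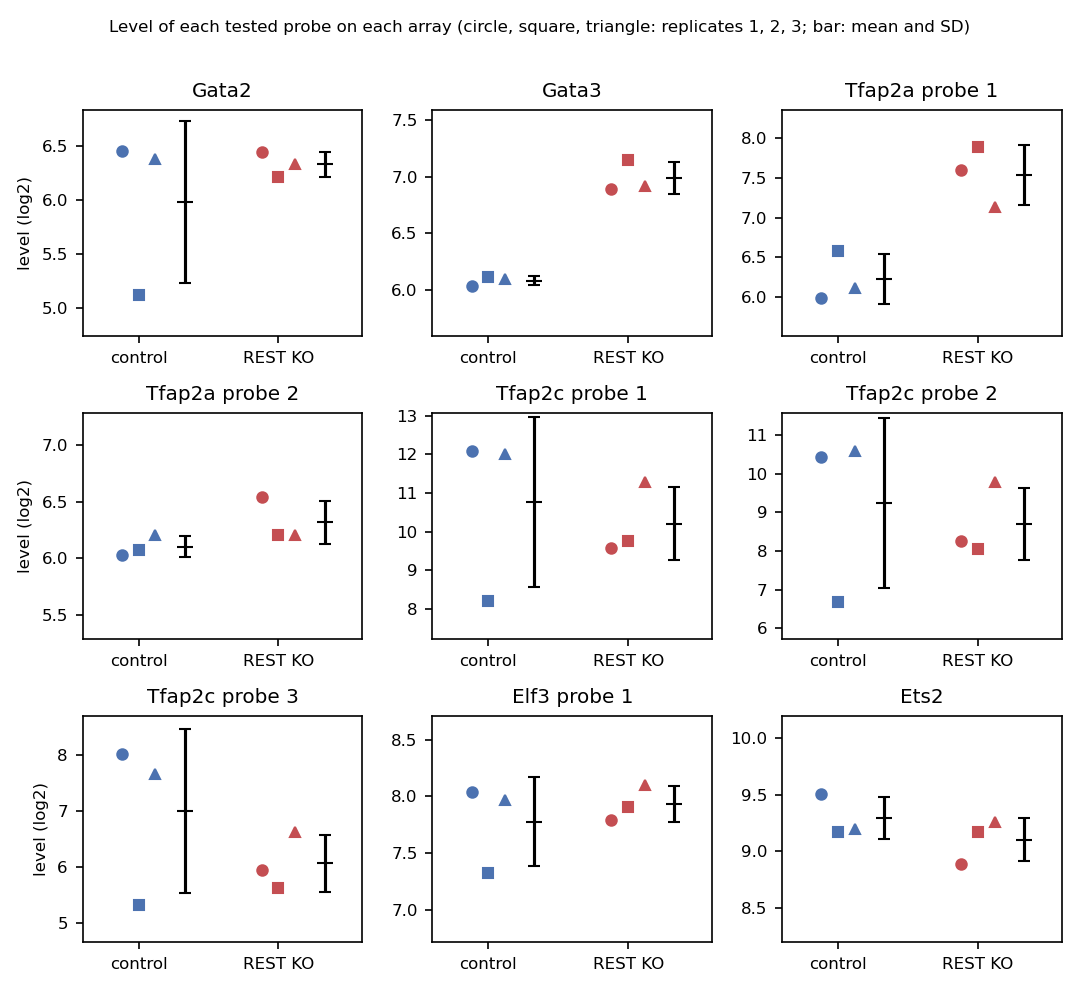
Level (log2, vertical axes with their own ranges) of the 9 tested probes on each array, with control arrays in blue, REST KO arrays in red, replicates 1, 2 and 3 as circle, square and triangle, and the mean with SD beside them. The genotypes are apart for Gata3 and Tfap2a probe 1, and control replicate 2 (blue square) lies far below the other controls for Gata2 and Tfap2c.

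Tfap2c, on chromosome 2, encodes an AP-2 factor needed in the trophoblast lineage, and is also expressed in naive ES cells. Probe 1 stood at 12.08, 8.21 and 12.01 in the controls and at 9.57, 9.77 and 11.28 in REST KO cells. Control replicate 2 was the lowest of the 6 arrays, REST KO replicates 1 and 2 were intermediate, and REST KO replicate 3 approached control replicates 1 and 3. Before normalization the same order held, with raw intensities of 4664.8, 354.4 and 4195.9 in the controls and 830.8, 942.9 and 2593 in REST KO cells.

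The other Tfap2c probes had the same lowest array and the same arrays above the rest, control replicates 1 and 3 and REST KO replicate 3. Probe 2 was at 10.43, 6.69 and 10.60 in the controls and 8.26, 8.06 and 9.78 in REST KO cells, and probe 3 at 8.02, 5.32 and 7.66 against 5.94, 5.63 and 6.62. Probe 3 was not detected on control replicate 2 or REST KO replicate 2. Over the 6 arrays probes 1 and 2 had a Pearson r of 0.995, and probe 3 had 0.944 and 0.943 with them, as a description of probes that share each array. The spread was thus read by all 3 probes.

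Over all 6 arrays none of the Tfap2c probes was called. The differences were -0.56 ± 1.03 (adjusted p = 0.805), -0.54 ± 1.03 (0.813) and -0.94 ± 0.67 (0.476) for probes 1, 2 and 3, with a 95% interval of -2.97 to 1.86 for probe 1. Without control replicate 2, all 3 probes fell, with differences of -1.84 (adjusted p = 0.0448), -1.82 (0.0470) and -1.78 (0.0159) for probes 1, 2 and 3. In that fit 7.24% of all tested probes were called higher and 7.40% lower, so calls of this kind were common there. Without control replicate 1 the differences of probes 1 and 2 were 0.10 and 0.05, and without control replicate 3 they were 0.06 and 0.14. Probe 3 kept its sign, and its adjusted p ran from 0.0159 to 0.842 over the alternatives, against 0.0448 to 0.988 for probe 1 and 0.0470 to 0.992 for probe 2. The direction of Tfap2c between genotypes was thus not settled for probes 1 and 2, and the 95% interval of probe 3 (-2.50 to 0.63) also held 0.

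**Figure D2:**
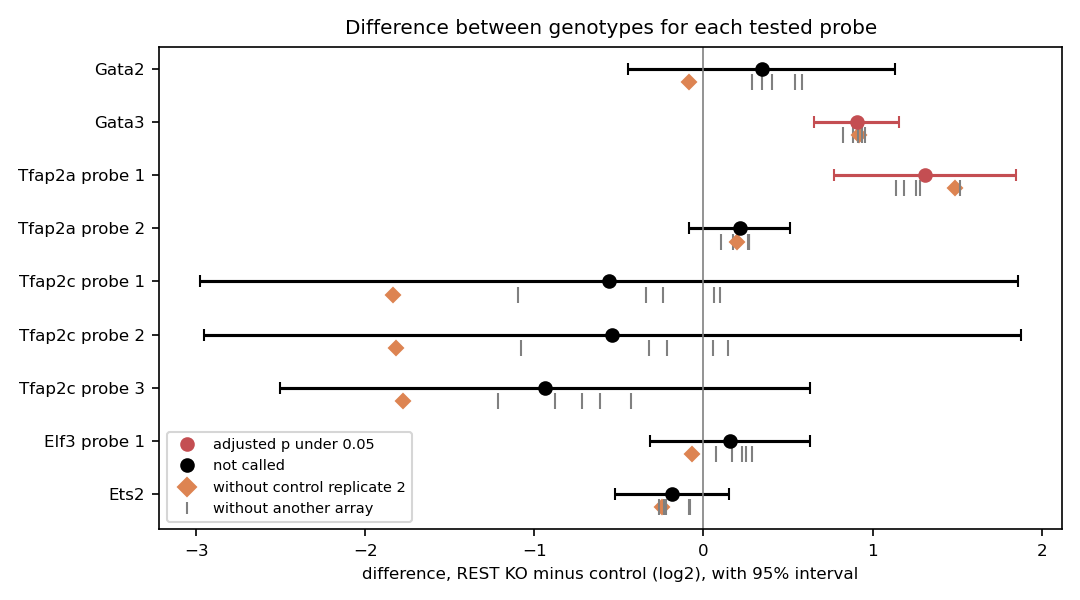
Difference between REST KO and control (log2, horizontal axis) for the 9 tested probes, with its 95% interval, in red where called, and below it the value with each array left out in turn (orange diamond: without control replicate 2). Gata3 and Tfap2a probe 1 stay above 0 throughout, and Tfap2c probes 1 and 2 move from -1.84 and -1.82 to 0.10 and 0.14.

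The ETS factors among the genes were not called. Ets2, on chromosome 16, sustains trophoblast stem cells downstream of fibroblast growth factor signalling, and was detected on all arrays. It stood at 9.50, 9.17 and 9.20 in the controls and 8.89, 9.17 and 9.25 in REST KO cells. The genotypes overlapped, and the difference was -0.19 ± 0.14 (95% interval -0.53 to 0.15, adjusted p = 0.508). Elf3, on chromosome 1, is a factor of simple epithelia, and its probe 1 stood at 8.04, 7.32 and 7.96 in the controls and 7.79, 7.91 and 8.10 in REST KO cells. Control replicate 2 was again the lowest array, and the difference of 0.16 ± 0.20 (adjusted p = 0.705) became -0.07 without it (adjusted p = 0.734, with a range of 0.632 to 0.968 over the alternatives). Elf3 probe 2 was detected on control replicate 1 alone and probe 3 on no array. A rise as large as that of Gata3 lies inside the 95% intervals of Gata2 and of Tfap2c probes 1 and 2, and above those of Elf3 (up to 0.63), Ets2, Tfap2a probe 2 and Tfap2c probe 3 (up to 0.63).

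The remaining regulators had no level above background. Elf5, on chromosome 2, locks in trophoblast stem cell fate and is known to be DNA-methylated in ES cells, and none of its 3 probes was detected on any array. Its probe 1 was at 5.47, 5.48 and 5.44 in the controls and 5.22, 5.33 and 5.16 in REST KO cells, all under the detection limit, so this non-overlap has no fold. Eomes, the T-box factor of trophoblast stem cells and of the primitive streak on chromosome 9, stood at 4.99, 5.40 and 5.07 in the controls and 5.61, 5.32 and 5.18 in REST KO cells. Its lowest detection p was 0.0689, on REST KO replicate 1. Hand1, on chromosome 11, drives trophoblast giant cells, and ran from 4.88 to 5.04 over all arrays. Ascl2, on chromosome 7, maintains spongiotrophoblast precursors, and ran from 4.99 to 5.16. The 9 untested probes of all regulators differed by -0.23 to 0.22. For such probes a change below the detection limit of the array would not be seen, so these readings do not show that the genes were silent.

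Over the 6 arrays, which all probes share, Gata3 and Tfap2a probe 1 had a Pearson r of 0.950. Both were called higher, so a high r over the pooled genotypes follows from that and is no further evidence. Tfap2a probe 2 had 0.617 with probe 1 and 0.580 with Gata3. Gata2 had 0.906 with Elf3 and 0.752, 0.763 and 0.611 with Tfap2c probes 1, 2 and 3, and Elf3 had 0.865, 0.852 and 0.676 with them. Gata3 and Tfap2a probe 1 had lower values with Gata2, Elf3 and Tfap2c, for example -0.511 for Tfap2a probe 1 with Tfap2c probe 2 and 0.306 for Gata2 with Gata3. Of the 9 tested probes 4, those of Gata2 and Tfap2c, lay over 1 log2 unit lower on control replicate 2 than the mean of the other controls, and Tfap2a probe 1 was 0.53 higher there.

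The genes most like Tfap2c were sought over the 6 arrays among all 8636 tested genes, by Pearson r with its probe 2, which had the widest range (3.92). The first 5 were Tubb2b, a beta-tubulin gene (0.998), the trypsin inhibitor gene Spink1 (0.997), Tada1 of the SAGA coactivator (0.997), Cpsf4l (0.997) and the membrane skeleton gene Epb41l3 (0.995). Spink1 stood at 11.19, 7.96 and 11.10 in the controls and 9.29, 8.95 and 10.47 in REST KO cells, with the same lowest array as Tfap2c and the same arrays above the rest. None of the 5 was called between genotypes (adjusted p from 0.775 to 0.845). Without control replicate 2, Spink1 (-1.58, adjusted p = 0.0450) and Cpsf4l (-1.55, adjusted p = 0.0382) fell, and each of the 5 turned above 0 without control replicate 1, without control replicate 3, or both in turn. The ranking describes these 6 arrays, which all genes share.

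The ES cell markers moved in part along with this order. Their mean over 11 tested genes was 11.53, 10.82 and 11.47 in the controls and 10.45, 10.46 and 10.97 in REST KO cells, so control replicate 2 was again the lowest control and REST KO replicate 3 the highest of its genotype. None of the 11 was called by limma, and 4 were lower and none higher at an unadjusted p under 0.05, where 10.0% of all genes were lower and 10.4% higher. No marker of the 11 lay above 0, with a median of -0.66 against -0.01 over all 8636 genes by their brightest probe. Klf4, a naive pluripotency factor, stood at 10.49, 8.33 and 10.69 in the controls and 7.71, 7.48 and 9.71 in REST KO cells (-1.54 ± 0.77, adjusted p = 0.313), and differed by -2.29 without control replicate 2 (adjusted p = 0.0496). Esrrb differed by -1.01 ± 0.41 (adjusted p = 0.228), and by -1.48 without that array (adjusted p = 0.0170). In that fit 6 of the 11 markers were called lower, where 7.90% of all genes were. The part of this shift in the values of Tfap2c, Gata2 and Elf3 was not tested.

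**Figure D3:**
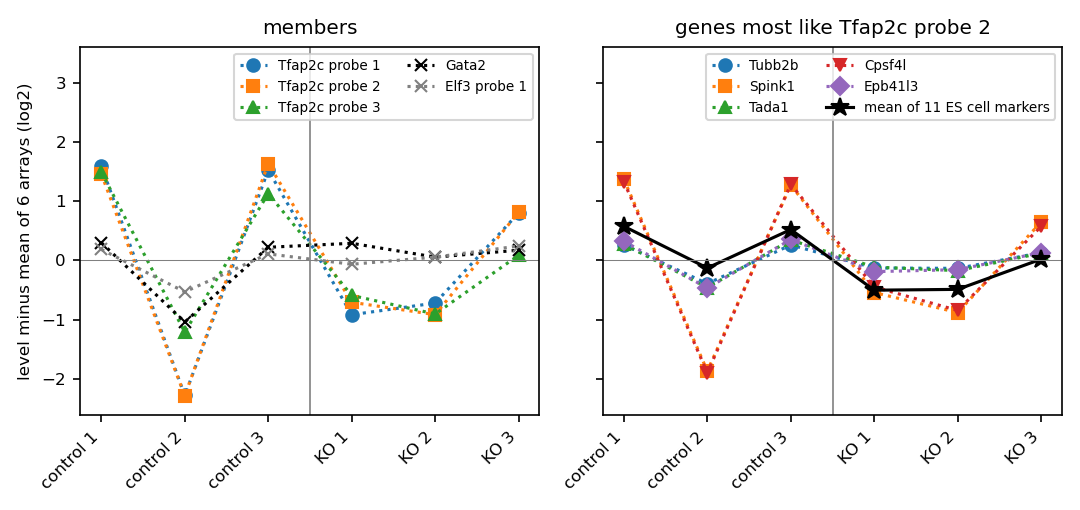
Level minus the mean of the 6 arrays (log2) for Tfap2c, Gata2 and Elf3 probe 1 (left) and for the 5 genes most like Tfap2c probe 2 with the mean of 11 ES cell markers (right), by array. Control replicate 2 is the lowest array for every gene drawn, while the lowest for the ES cell markers is REST KO replicate 1 (10.45).

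The companions of these regulators gave a mixed picture. Of 28 other transcription factor, signalling and epithelial genes of trophectoderm, 22 were tested by their brightest probe, of which 21 were detected on all control arrays. Id2, a helix-loop-helix inhibitor of early trophectoderm, and the simple epithelial keratin gene Krt18 were called higher, where 1.11% of all tested genes were. None of the 22 was called lower, where 0.255% of all genes were. The median difference was 0.15, and 14 of 22 lay above 0, against 47.7% of all genes. At an unadjusted p under 0.05 (limma), 6 of the 22 were higher and 4 lower, against 10.4% and 10.0% of all genes. Cdx2, which specifies trophectoderm, stood at 7.33, 6.71 and 7.19 in the controls and 7.80, 7.87 and 7.62 in REST KO cells. The genotypes did not overlap, yet the difference of 0.69 ± 0.17 did not pass (adjusted p = 0.0977). It was 0.50 when control replicate 2 was left out (adjusted p = 0.0377).

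Id2 stood at 6.66, 7.16 and 7.32 in the controls and 8.84, 8.52 and 8.26 in REST KO cells and rose by 1.49 ± 0.21 (adjusted p = 0.0320). Krt18 stood at 6.57, 7.03 and 7.48 against 8.55, 8.71 and 8.41 and rose by 1.53 ± 0.22 (adjusted p = 0.0337). Both were apart between genotypes on every array. Each call was kept under 8 of 14 alternative settings (adjusted p from 0.00939 to 0.166 for Id2 and from 0.00887 to 0.189 for Krt18), and both were lost with no detection filter, without control replicate 1 and without any 1 of the REST KO arrays. The fits that left out those arrays called 0 of all tested probes. At the other end of the list were Klf5, a factor of trophectoderm and of naive ES cells (-1.27 ± 0.50, adjusted p = 0.221), and the galectin gene Lgals3 (-1.33 ± 0.47, adjusted p = 0.185). With control replicate 2 left out, Klf5 fell by 1.82 (adjusted p = 0.0214) and Lgals3 fell by 1.87 (adjusted p = 0.0156). Klf5 stood at 13.03, 11.26 and 12.77 in the controls and 10.56, 10.88 and 11.81 in REST KO cells, and so had its lowest control on replicate 2, as Tfap2c did. Leaving out control replicate 2 gave 4 higher and 5 lower calls among the 22, where 7.54% of all genes were called higher and 7.90% lower.

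Genes of differentiated trophoblast were mostly at background. Of 25 such genes 24 had a probe, 14 of them were detected on no array, among them Prl3d1 and Prl3b1 (placental lactogens), Tpbpa (spongiotrophoblast) and Gcm1 (syncytiotrophoblast), and 9 were tested. Of the 9, 1 was called higher and none lower, where 1.11% and 0.255% of all genes were. This was Flt1, a receptor for vascular endothelial growth factor also made by trophoblast, and it lay under the detection limit on the control arrays. Its rise was at least 1.43-fold (adjusted p = 0.0239). Its levels were 5.14, 5.44 and 5.41 in the controls and 6.35, 6.31 and 6.25 in REST KO cells, and it entered the test only through the REST KO arrays, which fixes its direction, so the count of 1 is no support for the list. It has no value with detection required on all 6 arrays, and its adjusted p was 0.0367 with no detection filter and up to 0.160 with 1 array left out. The imprinted genes Cdkn1c (1.03 ± 0.25, adjusted p = 0.0904) and Peg10 (0.85 ± 0.16, adjusted p = 0.0549) did not pass. They were 1.32 without control replicate 2 (adjusted p = 0.00945) and 0.87 (adjusted p = 0.0268). Peg10 was detected on 2 of 3 control arrays, so it too passed the filter only with the REST KO arrays. The median of the 9 was 0.25, and with no filter it was 0.01 over all 24. At an unadjusted p under 0.05 (limma), 4 of the 9 were higher and none lower, against 10.4% and 10.0% of all genes. Flt1 and Peg10 are among the 4, so this count too is no support for the list.

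Among 22 factors known to hold trophoblast genes back in ES cells, 21 were tested and none was called by limma, with 3 lower and none higher at an unadjusted p under 0.05, against 10.0% and 10.4% of all genes. Of the pluripotency factors among them, Sox2 stood at 10.37, 9.75 and 10.14 in the controls and 9.10, 9.35 and 9.40 in REST KO cells (-0.81 ± 0.17, adjusted p = 0.0714), and differed by -0.97 without control replicate 2 (adjusted p = 0.0125). Nanog differed by -0.61 ± 0.40 (adjusted p = 0.442; -1.06 and 0.0376 without that array) and Pou5f1 by -0.08 ± 0.12 (adjusted p = 0.750). The median of the 21 was -0.08, and 6 lay above 0.

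Markers of other cell types that share these regulators were also read. Of 11 primitive streak and mesoderm genes 7 were detected on no array, including T (brachyury), Mixl1 and Mesp1, and both tested genes rose, Fgf8 (1.32 ± 0.21, adjusted p = 0.0391) and Hoxb1 (1.91 ± 0.27, adjusted p = 0.0310). Over all tested genes 1.11% were called higher. Hoxb1 was detected on 2 of 3 control arrays, so a background value enters its difference. It passed the filter only with the REST KO arrays, so its call is no support for the list. With detection required on all 6 arrays it has no value. Both calls were lost with no detection filter, without control replicate 1 and without any 1 of the REST KO arrays (adjusted p up to 0.166 for Fgf8 and 0.170 for Hoxb1), and that of Fgf8 also without control replicate 3. The fits without control replicate 1 or a REST KO array called 0 of all tested probes. Of 13 surface ectoderm and neural crest genes 11 had a probe and 8 were detected on no array, Krt5, Trp63 and Pax3 among them. The 3 tested genes were not called by limma, with 2 higher at an unadjusted p under 0.05, against 10.4% of all genes. Of these 2, Msx1 was detected on 2 of 3 control arrays and passed the filter only with the REST KO arrays. The count is thus no support for the list. Msx1 differed by 1.32 ± 0.29 (adjusted p = 0.0716) and the epithelial factor Grhl2 by 1.25 ± 0.53 (adjusted p = 0.251), with Grhl2 at 9.73 on control replicate 2 against 7.47 and 7.91 on the other controls. Without that array Msx1 rose by 1.52 (adjusted p = 0.0203) and Grhl2 by 1.93 (adjusted p = 0.0079).

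Of 8 tested primitive endoderm genes Sox7 was called lower, where 0.255% of all genes were. It was detected on no REST KO array and was at least 1.43-fold lower there (adjusted p = 0.0239). It entered the test only through the control arrays, which fixes its direction, has no value with detection required on all 6 arrays, and had an adjusted p of 0.0310 with no detection filter and up to 0.160 with 1 array left out. Dab2 (0.71 ± 0.40, adjusted p = 0.371) and Lama1 (-1.31 ± 0.52, adjusted p = 0.221) were not called. Both were when control replicate 2 was left out, at 1.19 (adjusted p = 0.0195) and -1.89 (adjusted p = 0.0189). Of 12 fibroblast feeder markers 11 had a probe and 7 were detected on no array, including the fibrillar collagen genes Col1a1 and Col3a1. Of the 4 tested Acta2 (2.03 ± 0.31, adjusted p = 0.0384) and Tagln (1.45 ± 0.15, adjusted p = 0.0239) rose, both of the actin cytoskeleton, where 1.11% of all genes were called higher. Tagln was detected on a single control array (1 of 3) and passed the filter only through the REST KO arrays. Background values thus enter its difference, and its call is no support for the list. Both calls were lost without control replicate 1 and without any 1 of the REST KO arrays (adjusted p up to 0.194 and 0.160), fits in which 0 of all tested probes were called. The call of Acta2 was kept under 7 of 14 alternative settings, and was also lost with no detection filter and with a variance trend. Thy1, a surface marker of fibroblasts, differed by -0.06 ± 0.15 and Vim by 0.44 ± 0.19 (adjusted p = 0.850 and 0.263). The mean of the 4 tested feeder genes was 7.95 to 8.38 in the controls and 8.94 to 9.26 in REST KO cells. Its rise came mostly from Acta2 and Tagln, while Thy1 did not rise and 7 listed markers were detected on no array. The mean of the 3 tested surface ectoderm genes was 6.96 to 7.94 in the controls and 7.87 to 8.34 in REST KO cells. Its rise came from Msx1 and Grhl2, while Grhl3 differed by -0.14 ± 0.10 (adjusted p = 0.452). The part of feeder or surface ectoderm cells in the rise of Gata3 and Tfap2a was not tested. In bulk samples a change in the number of cells of a type and in the RNA per cell cannot be told apart.

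**Figure D4:**
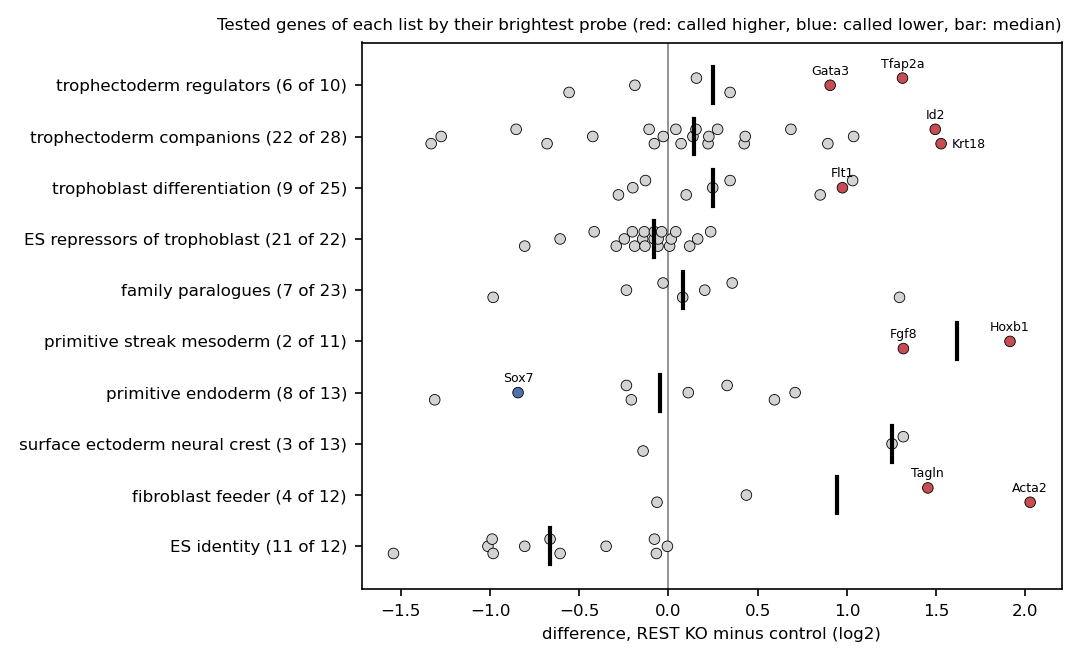
Difference between REST KO and control (log2, horizontal axis) for the tested genes of each list by their brightest probe, with the numbers tested and listed in brackets, called genes in red (higher) or blue (lower) and named, and the median as a bar. Called companions are Id2 and Krt18, and the ES cell markers all lie below 0, with a median of -0.66.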

How the data were processed

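Total RNA of 6 samples was read on Illumina MouseRef-8 v2 arrays. Per the file headers, BeadStudio 3.3.7 exported the deposited intensity of each probe, a mean over its beads, without normalizing it. A deposited detection score per probe, headed as a p-value, rises with signal, so the detection p was taken as 1 minus it. The deposited log2 values lie within 5e-09 of log2 intensities that were quantile normalized with no background step. The authors' limma table, with log2 differences and p-values, per the file headers, is used only where named, and its model options and genome build were not stated in those headers.

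Intensities were corrected and quantile normalized with neqc (limma 3.58.1, R 4.3.3; offset 16, which pulls differences of dim probes toward 0). Genotype was the only term of the two-sided limma test (lmFit, eBayes) over 11388 probes (8636 genes), with Benjamini-Hochberg adjustment. Adjusted p values come from that fit unless another is named, errors of differences are its standard errors, and n is 3 per genotype throughout. "At least" folds set the detected genotype against, on each array, the probe's own level or, where that is lower, the lowest level of any detected probe. Alternatives were other normalizations, filters and variance models, a replicate block, and each array left out.

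The named genes are all probes of the 10 regulators, Rest, Cdx2 and Pou5f1, and from each list up to 4 called genes by adjusted p and 2 uncalled ones with the largest difference. The 5 genes most like the widest-ranging regulator probe were named by Pearson r. Pluripotency factors and genes given as examples at background or beside these were chosen after their values were seen. The members and lists were chosen with earlier results of these data known. In simulated data with the spread of this comparison (11388 probes), limma called 16.4%, 67.2% and 89.4% of probes changed by 0.5, 1 and 2 log2 units. Only 200 probes were changed there, while 2262 tested probes had an unadjusted p under 0.05 (limma) in the data. The shares called may thus not hold for these arrays. The number of arrays limits the precision.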

Additional observations from a re-analysis of the deposited data

How the results depend on the processing

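Of 124 values of the 9 tested regulator probes under alternative settings, 101 kept sign and call, 7 changed sign, 13 lost a call and 3 gained one. Of 81 values of the untested probes, which have no call, 11 changed sign. Of 428 values of 31 other named genes, 334 kept sign and call, 9 changed sign, 47 lost a call and 38 gained one. Leaving out 1 array moved Gata2 from -0.088 to 0.58, Tfap2c probe 1 from -1.84 to 0.10, probe 2 from -1.82 to 0.14, and Elf3 probe 1 from -0.070 to 0.29 (-0.011 with array weights). It moved Thy1 from -0.21 to 0.042, Tubb2b from -0.30 to 0.022, Spink1 from -1.58 to 0.039, Tada1 from -0.36 to 0.038, Cpsf4l from -1.55 to 0.066 and Epb41l3 from -0.41 to 0.00024. Regulator probes called were 2, and 1 with no filter, 1 with detection on all 6 arrays and 0 to 5 with 1 array left out. The 120 probes called higher in all became 259 without background correction, 219 with an offset of 50, 46 with no filter, 62 with detection on all arrays, 272 with a variance trend, 730 with array weights and 0 to 825 with 1 array left out. The 25 called lower became 73, 55, 4, 7, 92, 656 and 0 to 843, and 15 with cyclic loess. Both counts were 0 without control replicate 1 and without each REST KO replicate, so no probe could keep a call in those fits.

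With 1 array left out, called genes ran from 0 to 9 for companions, 0 to 3 for differentiated trophoblast, 0 to 2 for repressors, paralogues, surface ectoderm, streak and feeder genes, 0 to 5 for primitive endoderm and 0 to 6 for ES cell markers. With array weights they were 8, 3, 1 (repressors), 2 (paralogues and surface ectoderm), 4 (primitive endoderm) and 4 (ES cell markers). With the trend they were 2 for differentiated trophoblast and primitive endoderm and 1 for repressors, paralogues, surface ectoderm, feeder genes and ES cell markers. Without background correction they were 2 for primitive endoderm and 1 for repressors, paralogues and ES cell markers, and with the offset of 50 they were 2 for differentiated trophoblast and 1 for paralogues. With no filter they were 0 for companions and streak and 1 for feeder genes, and with detection on all arrays 0 for differentiated trophoblast and primitive endoderm and 1 for streak and feeder genes. The cause of these changes was not tested.

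With a replicate block 0 probes were called in either direction, so regulators and lists had 0 (adjusted p = 0.0681 for Gata3 and Tfap2a). Deviations of same-numbered arrays had correlations of -0.274, 0.337 and 0.358, and control replicate 1 matched REST KO replicate 3 best (0.450), so the numbers were not taken to pair the samples. Signal near background limits Gata3, Gata2 and Tfap2a, and only a bound exists for undetected probes.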

Other observations

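Paralogues of the regulators were mostly at background in both genotypes. Of 23 family members on the array 15 were detected on no array, among them Gata4, Gata5, Tfap2b, Tfap2d, Tfap2e, Tbr1, Ehf and Hand2, so Tfap2a and Tfap2c were the AP-2 genes with a detected probe. The 7 tested paralogues had a median difference of 0.08, and none was called by limma, with 2 higher and 1 lower at an unadjusted p under 0.05, against 10.4% and 10.0% of all genes. Ets1, the closest relative of Ets2, stood at 6.74, 7.54 and 7.81 in the controls and 8.79, 8.85 and 8.34 in REST KO cells, with all REST KO arrays above all controls (1.29 ± 0.28, adjusted p = 0.0721). The value was 1.38 with control replicate 2 left out (adjusted p = 0.0328). Tbx3, a T-box factor of naive ES cells, stood at 10.26, 8.75 and 9.71 in the controls and 8.26, 8.46 and 9.06 in REST KO cells (-0.98 ± 0.38, adjusted p = 0.217). Its lowest control was replicate 2, and with that array left out Tbx3 differed by -1.40 (adjusted p = 0.0218).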
